A study of Homo sapiens with 8 samples.

Results

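The 10 genes DUSP4, DUSP5, DUSP6, DUSP10, SPRY1, SPRY2, SPRY4, SPRED1, SPRED2 and PHLDA1 encode phosphatases and adaptor-like proteins that restrain mitogen-activated protein kinase (MAPK) signalling, and most of them are themselves switched on by it. They were taken by symbol from a table of whole-number counts for 30434 genes. Each symbol occurred once, and all 10 genes were among the 16430 that passed a filter on low counts. DUSP6 and DUSP10 passed through their control libraries alone, with 8 to 14 and 4 to 8 counts in the knockdown libraries, so a gene at those levels in every library would not have been tested. The table came from SKBR3, an established human breast cancer cell line with amplified ERBB2 (HER2). It held 4 control libraries, whose genotype is given as WT, and 4 libraries from a stable line made with lentiviruses carrying 3 short hairpin RNAs against FOXA1. FOXA1 is a pioneer transcription factor of luminal breast cells, and the study asked how its loss bears on HER2-related pathways. The labels do not say whether the control cells carried a vector or whether replicates were separate cultures, so p-values measure only the spread between these libraries, which may be technical.

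The extracellular signal-regulated kinase (ERK) cascade runs from a receptor tyrosine kinase such as HER2 through RAS, RAF and MEK to ERK. Active ERK induces genes whose products dampen the same route. Dual-specificity phosphatases of the MKP group remove phosphates from ERK, JNK or p38. Sprouty proteins act between the receptor and RAF, and SPRED proteins bring the RAS inhibitor neurofibromin to the membrane. In ERBB2-amplified cells this feedback is known as a readout of pathway output and as a brake on it.

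In the knockdown libraries, 6 of the 10 genes were lower (DUSP4, DUSP6, DUSP10, SPRY1, SPRY4 and SPRED1), 1 was slightly higher (SPRED2), and 3 did not pass the test (DUSP5, SPRY2 and PHLDA1). The test was edgeR's quasi-likelihood test with Benjamini-Hochberg adjustment over all tested genes, at an adjusted p under 0.05. The median log2 fold change of the 10 genes was -1.46, against 0.02 over all tested genes. The 10 genes were chosen with earlier results of these data known, so comparisons of them with all tested genes are descriptions only. Changes were common in this comparison, where 77.1% of all tested genes passed: 37.7% of all tested genes were called lower and 39.4% higher. When the change had to exceed 2-fold (edgeR's glmTreat), 5 of the 10 genes remained lower and none higher, against 11.1% of all tested genes lower and 12.4% higher. DUSP6 was the gene that did not pass that stricter test (adjusted p of 0.362). Leaving DUSP6, DUSP10 and PHLDA1 out, as a minimum mean of 50 counts did, gave 4 lower and 1 higher of 7.

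**Figure D1:**
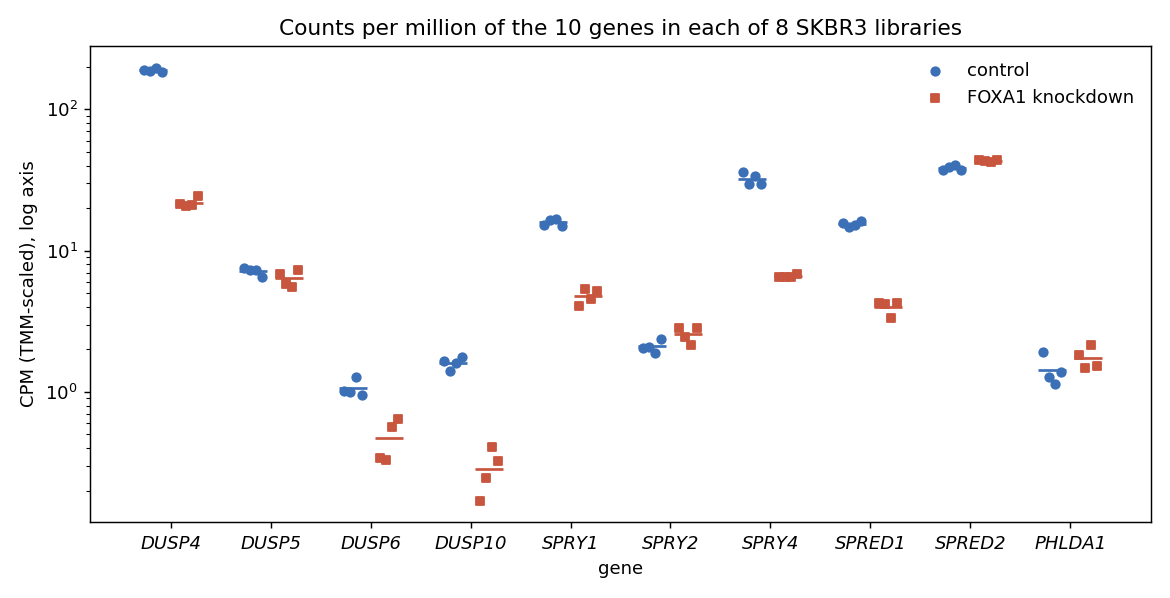
Scaled counts (CPM, log axis) of the 10 genes in each library, with control libraries as circles, FOXA1 knockdown libraries as squares and group means as lines. The groups are apart for DUSP4, DUSP6, DUSP10, SPRY1, SPRY4 and SPRED1 (lower) and SPRED2 (higher), and overlap for DUSP5, SPRY2 and PHLDA1. Over all tested genes the groups are apart for 72.0%, with 35.0% lower and 36.9% higher.

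Library totals ran from 19087878 to 23786684 counts, so that 1 count was worth 0.041 to 0.0509 CPM (counts scaled to a library total of 1000000 after TMM adjustment). FOXA1 itself averaged 191.7 ± 1.65 CPM in the controls and 3.96 ± 0.34 CPM in knockdown (SD over 4 libraries each), with 83 to 92 counts left per knockdown library. Control replicate 3 lay away from the rest of its group along the second principal component (22.1 against -12.1 to -1.42), and without it the counts were again 6 lower and 1 higher. Breast epithelial markers summed to between 19073.9 and 21238.6 CPM in the controls and between 12081.1 and 13000.3 CPM in knockdown. Of these 8 markers, 4 were lower (ERBB2, GRB7, KRT7 and KRT19) and 4 higher (EPCAM, KRT8, KRT18 and CLDN4). The largest fall in CPM within the sum was that of ERBB2, from a mean of 7308.2 CPM in the controls to 1340.1 CPM in knockdown. Of 6 leukocyte markers, 4 were tested, 2 lower and 1 higher, with sums of 5.68 to 7.41 CPM in the controls and 1.48 to 2.59 CPM in knockdown. CD68 fell from 4.94 CPM ± 0.632 to 0.589 CPM ± 0.406, and PTPRC had at most 3 counts in a library. Of 6 fibroblast markers, 3 were tested, 1 lower and 2 higher, with sums of 5.27 to 6.98 and 10.8 to 11.9 CPM. Among them COL3A1 had 2 counts summed over the control libraries and 384 over the knockdown libraries, PDGFRB rose from 0.41 CPM ± 0.11 to 2.83 CPM ± 0.476, COL1A1 fell (log2 fold change -0.31), and DCN had at most 1 count in a library. Of 4 endothelial markers, 2 were tested, 1 lower and 1 higher, with sums of 20.7 to 22.1 and 19.8 to 22.4 CPM. CDH5 rose from 16.1 CPM ± 0.295 to 20.1 CPM ± 1.36, VWF fell from 5.22 CPM ± 0.584 to 0.845 CPM ± 0.218, and PECAM1 had at most 6 counts in a library. COL3A1, PDGFRB and CD14, the leukocyte marker that rose, passed the filter on low counts through the knockdown libraries alone. At their control levels only a rise could have been tested. CD68 passed through the controls alone. Over all tested genes, 37.7% were called lower and 39.4% higher. The part of these cell type markers in the results was not tested. In bulk RNA, fewer cells of a type and less RNA per cell cannot be told apart.

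Among the phosphatases, DUSP4 showed the largest change of the 10 genes. DUSP4 (MKP-2) is a nuclear phosphatase of ERK, JNK and p38, and its gene (ENSG00000120875.9) lies on chromosome 8. Its level was 191.2, 187.2, 197.8 and 185.2 CPM in control replicates 1 to 4, and 21.4, 20.8, 21.2 and 24.2 CPM in knockdown replicates 1 to 4. No knockdown library came near the control range. DUSP4 was 8.69-fold lower, a log2 fold change of -3.12 (SE 0.0468, adjusted p of 1.79e-26 by edgeR). Only 3.55% of tested genes had a lower log2 fold change.

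DUSP6 (MKP-3, ENSG00000139318.8) is the cytoplasmic phosphatase dedicated to ERK and a much-used reporter of ERK output. In SKBR3 it was a rare transcript, with 22, 22, 27 and 22 counts in the control libraries and 8, 8, 11 and 14 in the knockdown libraries. These corresponded to 1.06 CPM ± 0.151 and 0.469 CPM ± 0.16 (SD, n = 4 each). The groups did not overlap, as for 72.0% of all tested genes, 35.0% in the lower direction and 36.9% in the higher. The log2 fold change of DUSP6 was -1.19, with a 95% interval from -1.75 to -0.62 (adjusted p of 0.000365 by edgeR). An antisense gene covers 1875 bases of its exons, but had 3 counts over all libraries.

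DUSP5, the nuclear ERK-specific phosphatase (ENSG00000138166.6), did not pass the test. It was at 7.51, 7.26, 7.27 and 6.55 CPM in the controls and at 6.89, 5.82, 5.55 and 7.31 CPM in knockdown, and the groups overlapped. Its log2 fold change was -0.16, with a 95% interval from -0.37 to 0.05 (adjusted p of 0.152 by edgeR). This interval does not reach a 2-fold change in either direction.

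DUSP10 (MKP-5, ENSG00000143507.18) prefers p38 and JNK to ERK. It had 36, 31, 34 and 41 counts in the control libraries and 4, 6, 8 and 7 in the knockdown libraries. Every knockdown library was below the lowest control library, at 0.287 CPM ± 0.102 against 1.61 CPM ± 0.15 (SD, n = 4 each). The log2 fold change was -2.49 (SE 0.269, adjusted p of 6.21e-09 by edgeR), with a 95% interval from -3.05 to -1.94. At these few counts the SE was larger than that of DUSP4.

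The Sprouty genes divided. SPRY4 (ENSG00000187678.10), which encodes an inhibitor of receptor-driven RAS and RAF activation, was at 36.1, 29.5, 33.7 and 29.6 CPM in control. In knockdown it was at 6.55, 6.47, 6.47 and 6.89 CPM, a narrow band far below every control. The log2 fold change of SPRY4 was -2.29 (SE 0.0764, adjusted p of 3.2e-19 by edgeR). An antisense gene overlaps SPRY4 outside its exons and had 44 counts over all libraries.

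SPRY1 (ENSG00000164056.11), a paralogue known for restraining fibroblast growth factor and RET signalling, had 332, 363, 353 and 348 counts in the control libraries and 96, 130, 90 and 111 in the knockdown libraries, or 15.9 CPM ± 0.89 and 4.78 CPM ± 0.563 (SD, n = 4 each). Its groups were also apart, and its log2 fold change was -1.73 (SE 0.0882, adjusted p of 2.56e-15 by edgeR). SPRY2 (ENSG00000136158.12), the Sprouty protein best known for binding the ubiquitin ligase CBL, did not pass the test. SPRY2 had 45, 46, 40 and 55 counts in the control libraries and 67, 60, 42 and 61 in the knockdown libraries, or 2.1 CPM ± 0.196 and 2.57 CPM ± 0.336 (SD, n = 4 each). In CPM, knockdown replicate 3 (2.14) lay inside the control range, which reached 2.37, and the other knockdown libraries lay above it. The log2 fold change of SPRY2 was 0.29, with a 95% interval from -0.04 to 0.61 (adjusted p of 0.0969 by edgeR). Without knockdown replicate 3 it was 0.36 and passed (adjusted p of 0.0458 by edgeR). It also passed with upper-quartile scaling (adjusted p of 0.0453) and with library size only (adjusted p of 0.0339).

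Promoter windows of SPRY1, SPRY2 and DUSP10 are shown because SPRY1 and DUSP10 fell and SPRY2 did not pass the test. RefSeq windows (GRCh38.p14) were used for 8 of the 10 genes. None was at hand for DUSP5, and windows on the chromosome of DUSP4 were left out. Those printed are the windows, of the 3 genes, listed first among those free of annotated exons. Each holds the 250 bases before a transcript start, 5′ to 3′ on the strand of the gene. The DUSP10 window lies inside the gene, before an internal start. The bases just after the SPRY2 window were not found in a GENCODE 29 transcript of SPRY2. Capitals mark CGGAA, a core of ETS factor binding, or its reverse complement TTCCG.
SPRY1, chr4:123396545-123396794, plus strand: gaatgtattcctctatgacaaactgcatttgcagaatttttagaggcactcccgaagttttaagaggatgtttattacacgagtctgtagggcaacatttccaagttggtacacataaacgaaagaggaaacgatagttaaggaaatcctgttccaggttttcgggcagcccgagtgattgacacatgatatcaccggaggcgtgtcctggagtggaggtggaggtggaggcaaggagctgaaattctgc
SPRY2, chr13:80341127-80341376, minus strand: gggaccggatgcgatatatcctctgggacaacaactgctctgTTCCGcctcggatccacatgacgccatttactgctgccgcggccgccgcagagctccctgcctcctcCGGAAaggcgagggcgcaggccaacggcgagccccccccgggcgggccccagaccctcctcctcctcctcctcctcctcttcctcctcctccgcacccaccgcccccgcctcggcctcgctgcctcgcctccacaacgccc
DUSP10, chr1:221736901-221737150, minus strand: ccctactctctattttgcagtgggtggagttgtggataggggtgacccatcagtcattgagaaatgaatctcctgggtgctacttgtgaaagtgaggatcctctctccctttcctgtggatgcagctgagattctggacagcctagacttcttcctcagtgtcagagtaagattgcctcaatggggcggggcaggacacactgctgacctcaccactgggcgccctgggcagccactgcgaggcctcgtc
The SPRY2 window held 2 matches to the ETS core, and the SPRY1 and DUSP10 windows held none. Of all 35116 windows of this length, 30.3% held the core. Of the 13 windows of the 8 genes, those of DUSP6 and PHLDA1, the other window of SPRY1 and this window of SPRY2 held it. The longer ETS motif CCGGAAG, which contains the core, occurred in 1 window, the other one of SPRY1 (8.52% of all windows). Neither forkhead motif, TGTTTAC or TATTTAC (5.27% of all windows), nor the AP-1 motif TGANTCA (6.57%), nor the CRE motif TGACGTCA (1.65%) occurred in any of the 13. All motifs were searched on both strands. A match is a description of letters, and its absence says only that these letters were not in the window.

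The pair of SPRED genes moved in opposite directions. SPRED1 (ENSG00000166068.13), whose loss in humans causes Legius syndrome, was at 15.6, 14.8, 15.1 and 16.1 CPM in the controls and at 4.25, 4.18, 3.36 and 4.26 CPM in knockdown. The groups were far apart, and the log2 fold change was -1.93 (SE 0.0876, adjusted p of 2.09e-16 by edgeR). SPRED2 (ENSG00000198369.10), its paralogue with the same partner neurofibromin, was at 37.4, 38.9, 40.3 and 37.0 CPM in the controls and at 44.2, 43.4, 42.1 and 44.2 CPM in knockdown. Every knockdown library of SPRED2 was above every control library, by a small margin. The log2 fold change of SPRED2 was 0.18 (SE 0.0463, adjusted p of 0.00108 by edgeR), a rise to 1.13-fold.

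PHLDA1 (ENSG00000139289.13), a pleckstrin-homology-like protein that is induced by ERK, was at 1.92, 1.27, 1.14 and 1.38 CPM in control. In knockdown it was at 1.83, 1.47, 2.14 and 1.53 CPM, and the groups overlapped. Its log2 fold change was 0.28, with a 95% interval from -0.14 to 0.69 (adjusted p of 0.21 by edgeR). PHLDA1 had 24 to 43 counts per library, and this interval does not reach a 2-fold change in either direction. Antisense genes cover 553 and 779 bases of its exons, with 4 and 2 counts over all libraries.

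**Figure D2:**
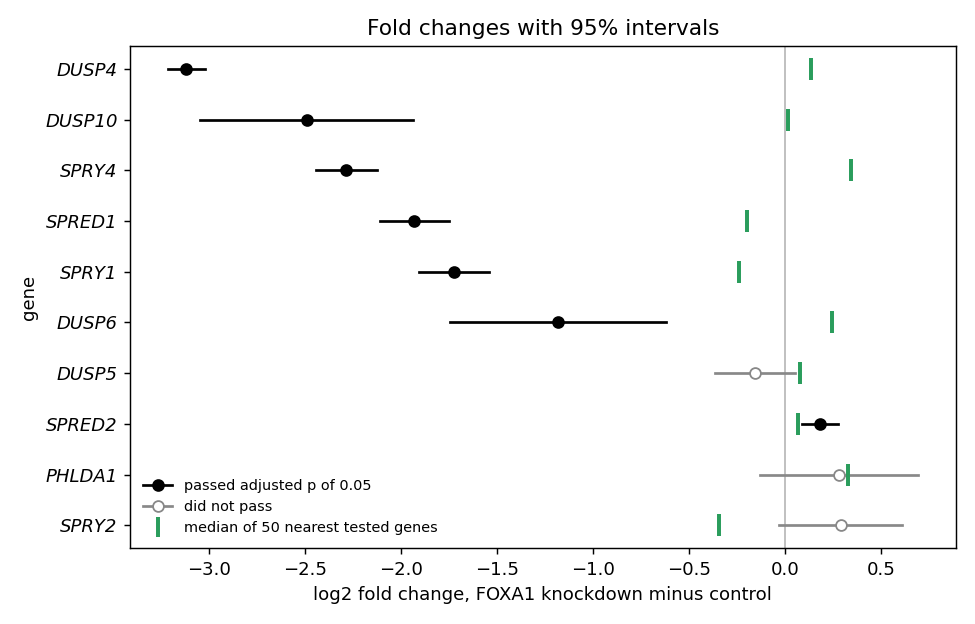
Log2 fold change (FOXA1 knockdown minus control) of the 10 genes with 95% intervals from edgeR, filled where the adjusted p was under 0.05, with the median over the 50 nearest tested genes as a green bar. The 6 genes that fell lie between -3.12 and -1.19, to the left of their neighbours' medians, which run from -0.24 to 0.34 for these 6.

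Fold changes in these data shift over chromosome segments, so each gene was set beside its 50 nearest tested genes, by their median log2 fold change. The neighbours of SPRY4 (chromosome 5, 142310427 to 142326455, GENCODE 29 on GRCh38) had a median of 0.34, against which SPRY4 differed by -2.63. The neighbours of SPRED1 (chromosome 15, 38252326 to 38357249) had a median of -0.20, and those of SPRY1 (chromosome 4, 123396795 to 123403760) had one of -0.24. Set against them, SPRED1 still differed by -1.73 and SPRY1 by -1.49. The neighbours of DUSP4, DUSP6 and DUSP10 had medians of 0.13, 0.24 and 0.02. For DUSP6 the median was -0.15 over the 20 nearest genes and 0.29 over the 100 nearest, and DUSP6 was below it by 1.04 to 1.47 on the log2 scale.

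SPRY2 (chromosome 13, 80335976 to 80340951) lay among neighbours with a median of -0.35, and differed from them by 0.63. With that regional shift taken out as an offset, SPRY2 was higher (adjusted p of 0.000749 by edgeR) and DUSP5 lower (-0.23, adjusted p of 0.0386 by edgeR). The p-values with this offset take the neighbours' median as known without error. With the number of neighbours used, the difference of DUSP5 ranged from -0.415 to -0.211 and that of SPRY2 from 0.549 to 0.634. PHLDA1 (chromosome 12, 76025447 to 76033932) had neighbours with a median of 0.32, and its own value turned to -0.05 (adjusted p of 0.843 by edgeR). SPRED2 was at 0.12 and still passed (adjusted p of 0.0246 by edgeR). The difference of SPRED2 from its neighbours ranged from 0.04 to 0.30 with the number of neighbours used.

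Per kilobase of exon, DUSP4 was by far the most abundant of the 10 transcripts in control, at 26.2 CPM per kilobase ± 0.77 (SD, n = 4). SPRED2 came next at 7.45, followed by SPRY4 at 4.91, SPRY1 at 4.0, DUSP5 at 2.73 and SPRED1 at 1.86 CPM per kilobase. SPRY2, DUSP10, DUSP6 and PHLDA1 were below 1, at 0.693, 0.552, 0.229 and 0.177 CPM per kilobase. Neighbours in this order had separate ranges over the libraries, except DUSP6 and PHLDA1. With the longest transcript as the length, SPRY1 and SPRY4 overlapped too and changed places.

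In knockdown the order was different. SPRED2 led at 8.44 CPM per kilobase ± 0.193, ahead of DUSP4 at 3.02 ± 0.209 and DUSP5 at 2.44 ± 0.322 (SD, n = 4 each). SPRY1 at 1.21 and SPRY4 at 1.0 CPM per kilobase overlapped, as did DUSP6 at 0.101 and DUSP10 at 0.0984, the lowest of the 10. With the longest transcript as the length, SPRY1 (1.56 to 2.04) and SPRY4 (1.21 to 1.29 CPM per kilobase) did not overlap in knockdown. SPRY2, at 0.845 CPM per kilobase, stood above SPRED1 at 0.486, the reverse of their order in control. PHLDA1, at 0.216 CPM per kilobase, stood above DUSP6 with no overlap. Summed over the 10 genes without regard to length, levels ran from 295.8 to 316.9 CPM in the controls and from 88.6 to 97.3 CPM in knockdown. Most of that sum in the controls was DUSP4, and the sum of the other 9 genes ran from 110.7 to 119.1 CPM in the controls and from 67.3 to 73.1 CPM in knockdown.

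**Figure D3:**
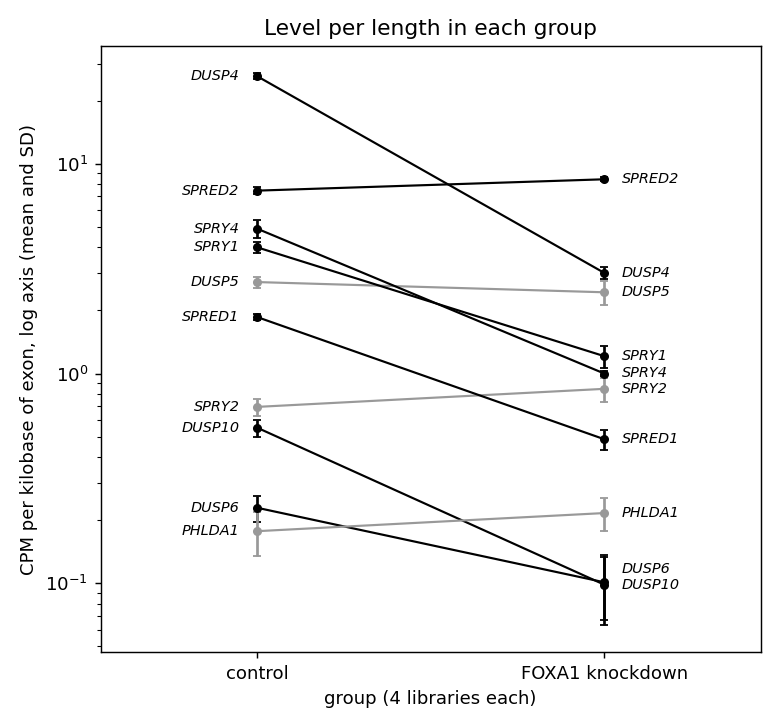
Mean level of each gene in CPM per kilobase of exon (log axis), with the SD over 4 libraries as error bars, joined from control to FOXA1 knockdown, with genes that did not pass the test in grey. DUSP4 falls from 26.2 to 3.02, below SPRED2, which is at 7.45 and 8.44.

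The rest of the phosphatase, Sprouty and SPRED families also changed in both directions. Of 8 other genes (DUSP1, DUSP2, DUSP7, DUSP8, DUSP9, DUSP16, SPRY3 and SPRED3), 7 were tested. Of these 7, 4 were higher (57.1%) and 2 lower (28.6%), against 39.4% and 37.7% of all tested genes. The median log2 fold change of these 7 was 0.37. With a minimum mean of 50 counts, 2 were higher and 2 lower. DUSP9 (MKP-4), another cytoplasmic ERK phosphatase, rose and averaged 2.11 ± 0.406 CPM in control against 35.3 ± 0.779 CPM in knockdown (SD over 4 libraries each), with a log2 fold change of 4.06 and an SE of 0.0874. DUSP7, of the same cytoplasmic class as DUSP6 and DUSP9, rose from 16.2 CPM ± 1.49 to 20.9 CPM ± 1.31 (log2 fold change 0.37). The other rises were DUSP2 and SPRED3, which had 14 and 13 counts summed over the control libraries and 99 and 68 over the knockdown libraries. Both passed the filter on low counts through the knockdown libraries alone, so at these control levels only a rise could have been tested.

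The falls in that list were in phosphatases of JNK and p38. DUSP8 averaged 35.1 ± 2.3 CPM in the controls and 6.69 ± 0.291 CPM in knockdown (SD over 4 libraries each), with a log2 fold change of -2.39 and an SE of 0.0678. DUSP16 (MKP-7) went from 71.0 CPM ± 1.23 to 26.8 CPM ± 0.371 (log2 fold change -1.40, SE 0.0439). Over 20 alternatives, the log2 fold change of DUSP8 ranged from -2.43 to -1.78 and that of DUSP16 from -1.42 to -1.11. DUSP1, the immediate-early phosphatase MKP-1, had a log2 fold change of 0.14 and did not pass (adjusted p of 0.0934 by edgeR). SPRY3 had at most 2 counts in a library.

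The core of the RAS-ERK cascade changed in both directions. All 24 genes of that list were tested, and 10 were lower (41.7%) and 11 higher (45.8%), near the 37.7% and 39.4% of all tested genes, with a median log2 fold change of 0.05. Scaled by library size only, 6 were lower. KSR1, a scaffold that holds RAF, MEK and ERK together, was the only one to pass the test against 2-fold, and it averaged 12.6 ± 1.31 CPM in control against 59.5 ± 4.32 CPM in knockdown (SD over 4 libraries each), with a log2 fold change of 2.25. The adaptor GAB1 had a log2 fold change of 0.73 and the ERK1 gene MAPK3 of 0.67. On the lower side, HRAS had a log2 fold change of -0.89, the MEK2 gene MAP2K2 of -0.56 and the ERK-activated kinase gene RPS6KA1 of -0.53. With the regional shift taken out, HRAS was at -0.52 and MAP2K2 at -0.27, and both still passed.

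Among 11 genes of JNK and p38 kinases and of the kinases above them, 5 were higher (45.5%) and 4 lower (36.4%), near the shares over all tested genes, with a median log2 fold change of 0.17. MAPK12 (p38 gamma) rose and averaged 0.816 ± 0.209 CPM in control against 10.2 ± 0.391 CPM in knockdown (SD over 4 libraries each), with a log2 fold change of 3.63. MAPK14 (p38 alpha) and MAPK8 (JNK1) had log2 fold changes of 0.57 and 0.50. With the regional shift taken out, MAPK14 was at 0.25, MAPK8 no longer passed, at 0.06, and 3 genes of the list were higher. MAPK11 (p38 beta) had a log2 fold change of -1.77, MAPK10 (JNK3) of -1.61 and the p38 activator MAP2K3 of -0.54.

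The other ERK-responsive genes did not move as one. Of 12, 10 were tested, of which 5 were lower and 4 higher, against 37.7% and 39.4% of all tested genes, with a median log2 fold change of -0.09. CCND1, which encodes cyclin D1, fell and averaged 452.3 ± 5.05 CPM in control against 225.7 ± 6.49 CPM in knockdown (SD over 4 libraries each). The immediate-early gene IER3 fell from 193.9 CPM ± 6.91 to 91.7 CPM ± 3.07 (log2 fold change -1.08), and the ETS factor gene ETV1 from 4.28 CPM ± 0.232 to 0.237 CPM ± 0.22. ETV1 had 13, 5, 1 and 3 counts in the knockdown libraries and passed the filter through the controls alone, and its log2 fold change of -4.09 was -4.91 without knockdown replicate 1.

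Against these, FOS, a component of AP-1, rose and averaged 2.01 ± 0.815 CPM in control against 26.1 ± 2.89 CPM in knockdown (SD over 4 libraries each), with a log2 fold change of 3.68. The ephrin receptor gene EPHA4 had a log2 fold change of 1.56. ETV5, an ETS factor gene usually induced with DUSP6 and SPRY4 by ERK, had 4 counts summed over the control libraries and 765 over the knockdown libraries. The ratio of its scaled counts was 189.0, with an exact 95% interval from 73.5 to 695.4 that covers counting error only and takes the deposited values as counts of reads. ETV5 passed the filter through the knockdown libraries alone. EGR3 and FOSL1 were below the filter, at 2 to 10 and 2 to 6 counts per library.

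At the head of the pathway, ERBB2 averaged 7308.2 ± 365.3 CPM in the controls and 1340.1 ± 52.9 CPM in knockdown (SD over 4 libraries each), with a log2 fold change of -2.45. EGFR and ERBB3 were higher, with log2 fold changes of 0.96 and 0.45. With the regional shift taken out, ERBB3 was at 0.19 and still passed. ERBB4 had 4 to 9 counts in the control libraries and 0 in each knockdown library, below the filter.

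**Figure D4:**
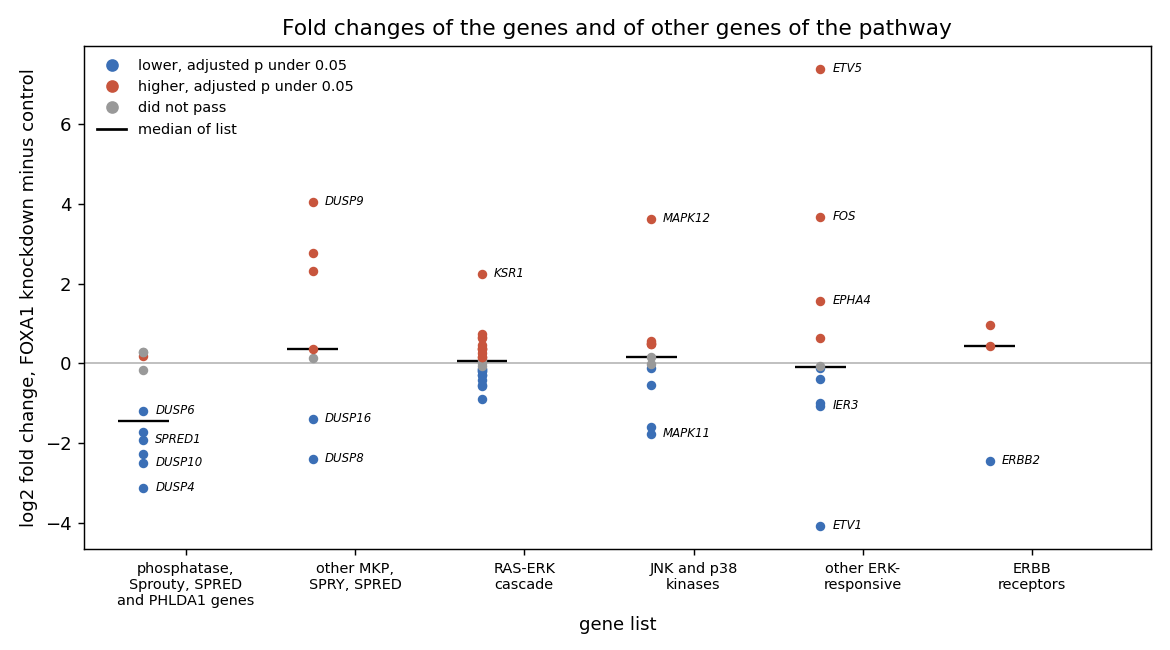
Log2 fold changes (FOXA1 knockdown minus control) of the 10 genes and of the tested genes of 5 other lists, coloured by direction and test, with each list's median as a line and genes of larger change named. The medians are -1.46, 0.37, 0.05, 0.17, -0.09 and 0.44 from left to right.

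The genes with the profile most like that of DUSP4, the member with the largest fold change, were SERINC2, STK24 and RAB11FIP5. They were found among 12419 genes averaging 50 counts or more, by the Euclidean distance of log2 CPM centred on each gene's mean over the 8 libraries. The distances were 0.109, 0.123 and 0.123. SERINC2 averaged 351.6 ± 20.5 CPM in the controls and 41.5 ± 2.88 CPM in knockdown (SD over 4 libraries each). STK24 went from 108.3 CPM ± 4.22 to 12.6 CPM ± 0.734, and RAB11FIP5 from 34.6 CPM ± 1.82 to 3.97 CPM ± 0.208. With 2 groups of libraries, this distance is set mainly by the fold change.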

How the data were processed

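RNA from 8 SKBR3 samples (4 control, 4 FOXA1 knockdown) was sequenced as paired-end reads of 101 bp, per the labels' protocols. The authors deposited whole-number counts per gene. The submitters' processing notes name FastQC, Salmon 1.9, DESeq2 (given as 3.16) and hg38, with no role or order; whether the counts are reads or rounded Salmon estimates, which annotation was used, and whether strand was, is not given in the sources used here. Without strand, reads of overlapping genes cannot be told apart.

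Columns were matched to samples by name. In R 4.3.3 with edgeR 4.0.16, filterByExpr (minimum of 10 counts, total of 15) kept 16430 of 30434 genes. Libraries were TMM-scaled and groups compared by glmQLFit (robust) and glmQLFTest, with Benjamini-Hochberg adjustment. The SE is the log2 fold change divided by the square root of F. edgeR's biological coefficient of variation was 4.56%. Alternatives used limma 3.58.1 and DESeq2 1.42.0. Positions and exon lengths come from GENCODE 29 for the same Ensembl identifier.

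The 10 genes and the lists were chosen with earlier results of these data known. Named from the other lists were up to 3 rises and 3 falls, by log2 fold change, among called genes averaging 50 counts or more. Figures used Python 3.11.15 and matplotlib 3.10.9.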

Additional observations from a re-analysis of the deposited data

Results flagged for a closer look

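Libraries were singled out by Dixon's ratio, the distance from an extreme library to the next over the spread of its group, at its 95% critical value. This was asked of 74 groups of 4 values, where chance gives about 3.7, and 2 were picked out. SPRED1 was low in knockdown replicate 3, at 3.36 CPM against 4.18 to 4.26 CPM in the other knockdown libraries (ratio 0.913), and its log2 fold change without that library was -1.86. DUSP9 was high in knockdown replicate 1, at 36.5 CPM against 34.8 to 35.0 CPM (ratio 0.885), and its log2 fold change without that library was 4.05. The cause was not tested.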

How the results depend on the processing

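The 6 genes called lower numbered between 4 and 7 over 20 alternatives, and were 6 whichever library was left out. The count of 1 higher became 2 with upper-quartile scaling, 2 with no scaling beyond library totals, 2 with the offset for chromosomal neighbours and 0 in the test against a 2-fold change, and ranged from 1 to 2 over the libraries left out (2 without knockdown replicate 3). PHLDA1 turned from 0.28 to -0.046 with that offset. In the 5 other lists, 22 of 55 tested genes were lower and 26 higher, near the 37.7% and 39.4% of all tested genes. In the test against a 2-fold change these counts became 7 and 8, near the 11.1% and 12.4% of all tested genes. FOXA1 kept its direction and call in all 20. With a replicate block the counts were 6 lower and 1 higher, and 21 and 26 in the other lists. Deviations of libraries with the same number correlated between -0.05 and 0.163, and those with different numbers between -0.116 and 0.079. The numbers are not said to mark pairs, so the main fit had no block. The cause of the differences between settings was not tested. Depth limits DUSP6, DUSP10, PHLDA1 and SPRY2, which had 67 counts or fewer in every library.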
